A study of Mus musculus with 6 samples.

Results

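The genes described here encode the nuclear part of the mitochondrial respiratory chain. They were chosen by name: symbols beginning with Ndufa, Ndufab, Ndufb, Ndufc, Ndufs or Ndufv and a digit (complex I), Sdha to Sdhd (complex II), Uqcr (complex III), Cox4 to Cox8 (complex IV) or Atp5 (complex V). Of 36758 genes in the deposited table, 101 names matched and 13 of them were set aside because they hold "-ps", which left 88 members. Complex I had 41 members, complex II 4, complex III 8, complex IV 18 and complex V 17. By the GENCODE M21 annotation 84 are protein-coding and 4 (Ndufa11b, Ndufb4c, Ndufs6b and Cox6c2) are processed pseudogenes.

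RNA sequencing was done on 6 libraries of RNA from the brain of C57BL/6J mice, aged 6 months per the series text, and the labels give the cell type as microglia. In the TMAO group (3 libraries) mice received 0.12% trimethylamine N-oxide, a metabolite that the liver makes from the trimethylamine of gut bacteria, once daily over 16 weeks. In the vehicle group (3 libraries) mice received water over the same 16 weeks. Whether each library is a separate animal is not stated, and the protocol mentions pooled RNA, so p-values measure only how far libraries differ, which may be technical.

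The respiratory chain passes electrons from NADH (complex I) and succinate (complex II) through ubiquinone to complex III and, by cytochrome c, to oxygen at complex IV. Complexes I, III and IV pump protons, and complex V, the ATP synthase, makes ATP from the gradient. A few subunits are encoded in mitochondrial DNA, and the nucleus encodes the rest, for which the factors NRF1, the ETS protein GABP, YY1 and the oestrogen-related receptors are known regulators. Neurons depend heavily on this pathway for ATP.

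Levels are given in FPKM, a unit that corrects for the length of a gene and the size of a library, so that genes can be compared. The total ran from 305924 to 320414 FPKM in TMAO libraries and from 305701 to 326977 FPKM in vehicle libraries, and read counts were not used here. Despite the microglia label, 8 microglia markers summed to 100 to 112 FPKM in TMAO libraries and 91.4 to 228 FPKM in vehicle libraries, while 11 neuron markers summed to 945 to 1111 FPKM in TMAO libraries and 434 to 1011 FPKM in vehicle libraries. Vehicle replicate 1 stood apart: it had the lowest neuron sum, and the highest sums of endothelial markers (352 FPKM, against 77.4 to 140 FPKM in the other libraries) and erythroid markers (601 FPKM, against 80.7 to 267 FPKM). Not all neuron markers were low in it: Gad1 (49.1 FPKM) and Gad2 (50.2 FPKM) were at their highest there, while Slc17a7 was at its lowest (14.5 FPKM). In such bulk RNA, fewer cells of a type and less RNA per cell cannot be told apart. Differences of single genes and gene lists that vehicle replicate 1 moved by over 1.5 times are also given without it. A second shift ran between the groups: all 7 oligodendrocyte markers were lower in TMAO libraries. In 6 of them (85.7%, against 17.5% of all genes tested) the groups did not overlap. Their sums were 612, 378 and 427 FPKM in TMAO libraries and 902, 785 and 739 FPKM in vehicle libraries. Their median log2 difference was -0.84, and -0.87 without vehicle replicate 1.

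Promoter sequences were available for 69 of the 88 members (RefSeq, GRCm38.p6, 250 bases before to 50 after the start). The NRF1 letters GCGCATGC or their reverse complement were in 10 members, or 14.5%, against 3.05% of all 27025 genes with a promoter and 5.80% of the 10081 among them that passed the expression filter. These 10 promoters are shown because they hold the motif most common in the set and because they come from all 5 complexes; capitals mark the motif, and 10 capitals mean that both strands match with an overlap.
Ndufa6: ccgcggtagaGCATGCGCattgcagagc
Ndufa8: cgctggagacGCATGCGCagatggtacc
Ndufa11: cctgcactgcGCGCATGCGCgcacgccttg
Sdhb: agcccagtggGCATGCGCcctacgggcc
Uqcr11: tcgccttcacGCATGCGCtatacgtctg
Uqcrc1: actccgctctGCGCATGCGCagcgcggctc
Cox6a1: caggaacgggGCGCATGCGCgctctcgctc
Atp5g2: ggctccggccGCGCATGCGCagagccttcc
Atp5k: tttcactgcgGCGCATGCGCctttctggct
Atp5l: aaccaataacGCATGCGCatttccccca

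The YY1 letters ATGGCGGC (either strand) were in 6 members, or 8.70%, all of complex I, against 2.60% of all genes and 5.61% of expressed genes. They are shown because in 5 of the 6 the match lies 20 to 39 bases after the start, and because Ndufs6 is described below.
Ndufs4: ctacaggaagATGGCGGCggtc
Ndufs6: caccggcaagATGGCGGCggtgct
Ndufs7: cgaggccaagATGGCGGCgctggcgggt
Ndufa7: cgtgtccatgATGGCGGCgatctggcgg
Ndufa9: gtgggagaagATGGCGGCcgccgtccgc
Ndufb5: cggtgtagccATGGCGGCcatgagcctg
The ETS letters CCGGAAGT were in 5 members, or 7.25%, against 4.31% of all genes and 8.75% of expressed genes, and the oestrogen-related receptor letters TCAAGGTCA were in 2 (Atp5g3 and Sdhd), or 2.90%, against 0.466% and 0.397%. Of the 10 members with the NRF1 letters 2 were higher and 8 lower in TMAO libraries, with a median log2 difference of -0.08. Of the 6 with the YY1 letters 3 were higher and 3 lower, with a median of -0.01. Without vehicle replicate 1 Ndufs4, Ndufs6 and Ndufs7 had log2 differences of 0.10, 0.09 and -0.06. Ndufa7, Ndufa9 and Ndufb5 then had -0.11, -0.14 and -0.08. A match describes letters and not a bound site.

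Members of one complex differed widely in level. Over the 6 libraries Cox8a, a small subunit of complex IV, was the highest member at a mean of 224 FPKM, followed by Atp5a1, the alpha subunit of the ATP synthase head, at 182 FPKM. Complex II ran from 17.7 FPKM (Sdhc, a membrane anchor) to 74.3 FPKM (Sdha, the flavoprotein that oxidises succinate), and complex III from 16.6 FPKM (Uqcrq) to 55.0 FPKM (Uqcrc2, a core protein). In complex I the highest was Ndufb9 at 71.9 FPKM and in complex V the lowest was Atp5l at 7.09 FPKM. Across 80 protein-coding members that passed the filter, level and exon length were weakly inversely ranked (Spearman's rho -0.27, a description across genes). The 37 with under 1500 bases had a median of 40.0 FPKM and the 19 with over 3000 bases a median of 16.4 FPKM. FPKM itself divides by length, so this ranking is not independent of the unit.

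**Figure D1:**
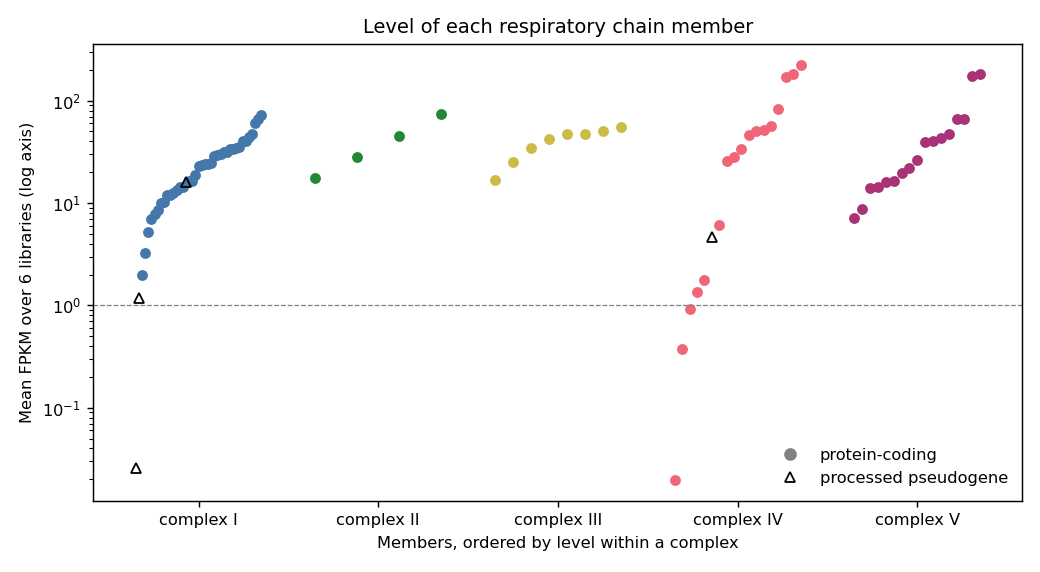
Mean FPKM over the 6 libraries (log axis) of each of the 88 members, ordered within its complex; open triangles are processed pseudogenes and the dashed line marks 1 FPKM. Complex IV spans the widest range, up to 224 FPKM for Cox8a.

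A filter that kept genes reaching 1 FPKM in 3 or more libraries left 83 members among 14206 genes tested. The 5 below it were the pseudogene Ndufa11b and 4 isoforms of complex IV known from testis or from heart and skeletal muscle. Cox8b, a muscle isoform, was listed at 0 in 5 libraries and at 0.118 FPKM in TMAO replicate 1. Cox7b2, a testis isoform, had 0.444, 0.0784 and 0.201 FPKM in TMAO libraries, against 0.135, 0.722 and 0.653 FPKM in vehicle libraries. Cox6b2 and Cox7a1 are described with their families below.

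The comparison of TMAO with vehicle asked whether expression of the chain differed after 16 weeks of TMAO. No member passed: limma with Benjamini-Hochberg adjustment called 0 of 83 members and 0 of 14206 genes (0%) at an adjusted p under 0.05, and the smallest adjusted p of a member was 0.404. At an unadjusted p under 0.05 there was 1 member, lower in TMAO libraries, or 1.205%, and 0 higher; over all genes 7.22% were lower and 4.84% higher at that level. The 3 libraries of one group lay wholly below the other in 6 members, or 7.23%, against 17.5% of all genes, and wholly above in 1, or 1.205%, against 12.1% of all genes. In all 6 members that were wholly below, vehicle replicate 1 was the highest library. The part of the lower oligodendrocyte markers in these 6 was not tested. The authors' deposited table marks 0 members as significant, against 6.75% of 34778 genes with a value. All marked genes had a deposited p-value under 0.05 and a log2 ratio beyond 1 in size. Their q-values reached 0.461, so the mark did not follow the q-value. The smallest q-value of a member was 0.427, for Ndufa4l2, whose deposited log2 ratio was -0.70. The 2 shares thus also reflect the size of the ratio, and genes were not matched for spread.

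The members varied little. 79 of 83, or 95.2%, lay within 0.25 of 0 in log2(FPKM + 1), against 54.8% of all genes tested. These shares were not matched for level: the median was 28.2 FPKM for the members and 5.84 FPKM for all genes tested. On that scale the 95% interval lay within 1 of 0 for 82 members, the exception being Cox4i2. The added 1 FPKM understates the fold of members at a few FPKM, such as Ndufa4l2 and Cox4i2, so for these the interval does not bound the fold in FPKM. By complex, the counts higher and lower were 16 and 24 in complex I, 2 and 2 in complex II, 2 and 6 in complex III, 6 and 8 in complex IV, and 5 and 12 in complex V. Over all 83 members 31 were higher and 52 lower with a median log2 difference of -0.02, beside -0.03 over all genes tested, of which 6646 were higher and 7560 lower. With vehicle replicate 1 left out the members' median was -0.05 and 58 were lower. In complexes I to V, 25, 3, 5, 10 and 15 were then lower. Without vehicle replicate 3 the members' median was 0.05 and 30 were lower, beside a median of -0.02 over all genes tested. By complex, in the same order, 11, 1, 4, 7 and 7 were then lower. Under quantile normalization the members' median was 0.05 and 27 were lower, beside 0.03 over all genes tested. The numbers lower by complex were then 10, 1, 3, 5 and 8. Under median scaling the members' median was 0.01 and 37 were lower, beside -0.0011 over all genes tested. The direction of the set thus turned with a library and with the scaling, and the scaling also moved the median of all genes.

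**Figure D2:**
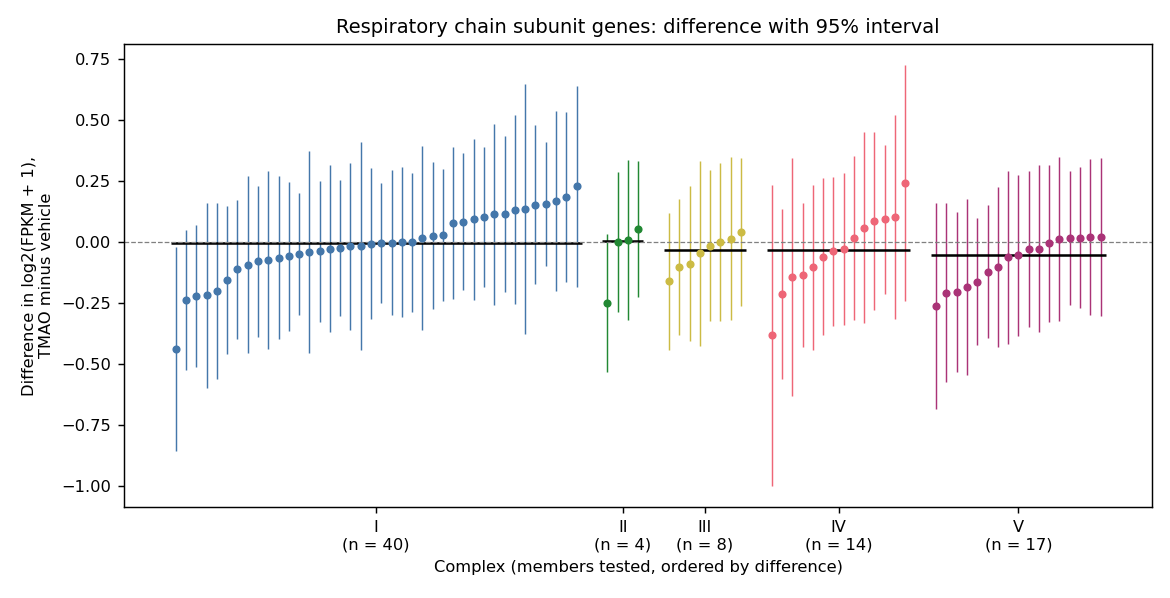
Difference in log2(FPKM + 1), TMAO minus vehicle, of the 83 members tested, ordered within each complex; points are estimates, vertical lines 95% intervals from limma and black bars the median of a complex. The medians lie close to 0 and the interval of 1 member, Ndufa4l2, lies wholly below 0.

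Differences between libraries were shared by many members. Vehicle replicate 3 had the highest value of the 6 libraries in 47 of 83 members, or 56.6%, against 13.4% of all genes, and the lowest in 0. TMAO replicate 1 exceeded both other TMAO libraries in 63 members, and vehicle replicate 3 both other vehicle libraries in 64. The shares of all genes were not counted for these comparisons. The median deviation of the members from the gene mean was 0.07, -0.08 and -0.04 in TMAO libraries, against -0.02, -0.07 and 0.15 in vehicle libraries, on the log2 scale. Over all genes tested it was -0.03, 0.0022 and -0.01 in TMAO libraries and 0.04, 0.0038 and 0.01 in vehicle libraries. Summed FPKM of all members were 3373, 3078 and 3118 in TMAO libraries and 3200, 3091 and 3554 in vehicle libraries, which overlap.

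**Figure D3:**
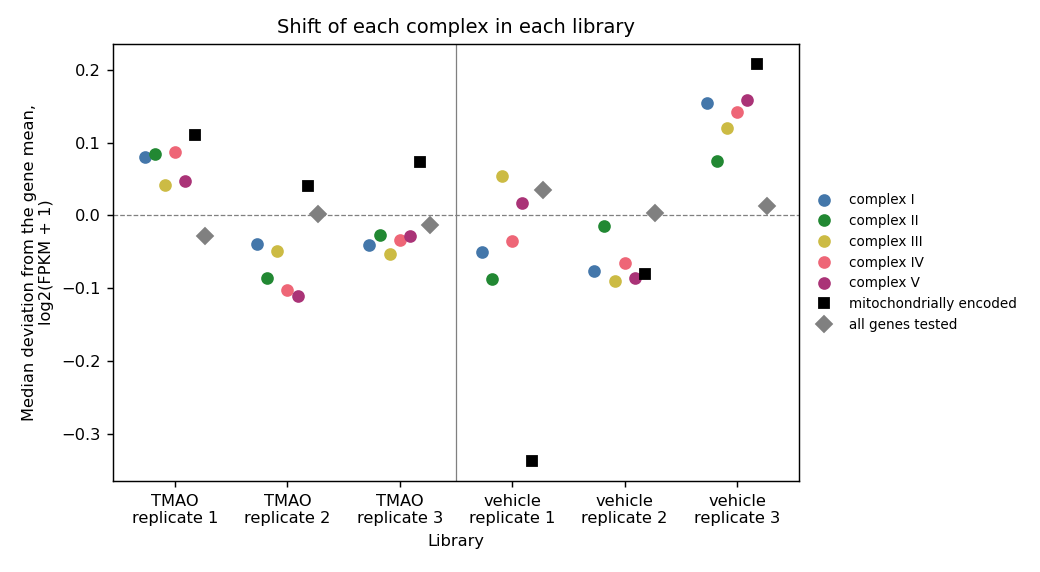
Median deviation from the gene mean in log2(FPKM + 1) for the members of each complex, the 13 mitochondrially encoded subunits and all genes tested, by library, with TMAO on the left. All 5 complexes are above 0 in TMAO replicate 1 and vehicle replicate 3, and the mitochondrially encoded subunits are lowest in vehicle replicate 1.

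Complex I oxidises NADH through 7 core subunits encoded in the nucleus. Summed, these core subunits had 221, 212 and 202 FPKM in TMAO libraries, against 184, 197 and 229 FPKM in vehicle libraries. The groups overlapped, with vehicle replicate 1 lowest and vehicle replicate 3 highest. 5 were higher and 2 lower, with a median log2 difference of 0.08, but the median was -0.0047 without vehicle replicate 1. That library was the lowest of the 6 for 5 of the 7 core subunits and for 8 of the 33 other complex I members tested, beside 35.9% of all genes. Ndufv1, which binds the flavin that takes electrons from NADH, had 38.5, 37.7 and 35.8 FPKM in TMAO libraries and 27.3, 34.8 and 38.4 FPKM in vehicle libraries (log2 difference 0.17, SE 0.15, and 0.03 without vehicle replicate 1). Ndufs1, an iron-sulfur subunit, had 14.8, 14.8 and 14.2 FPKM in TMAO libraries and 12.1, 14.0 and 15.3 FPKM in vehicle libraries (log2 difference 0.08, and -0.0047 without it). For both genes the groups overlapped, and vehicle replicate 1 was the lowest library. Ndufs3 (0.11) and Ndufs8 (0.11), both of the arm that faces the matrix, had similar log2 differences, which were 0.03 and 0.02 without vehicle replicate 1. Those of Ndufs7 and Ndufv2 were 0.02 and -0.0093, or -0.06 and -0.04 without that library.

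Among the accessory subunits of complex I, Ndufs6 was the 1 tested member higher in every TMAO library. Its levels were 19.9, 20.0 and 20.0 FPKM in TMAO libraries, against 16.3, 18.5 and 18.8 FPKM in vehicle libraries. The TMAO libraries were nearly equal and the groups did not overlap (log2 difference 0.15, SE 0.10, limma adjusted p 0.451), and the difference was 0.09 without vehicle replicate 1. Ndufs6, a zinc-binding subunit, lies at chr13:73319838-73328542 in GRCm38. Ndufa8 had 45.5, 43.9 and 40.9 FPKM in TMAO libraries, against 55.4, 48.2 and 50.8 FPKM in vehicle libraries (log2 difference -0.24, SE 0.12, limma adjusted p 0.407). Ndufb6, of the membrane arm, had 26.9, 25.3 and 26.7 FPKM in TMAO libraries, against 34.7, 29.4 and 28.8 FPKM in vehicle libraries (log2 difference -0.22). In both genes every TMAO library was below every vehicle library, and vehicle replicate 1 was the highest; without it the log2 differences were -0.19 and -0.14. Ndufa6 (0.23) and Ndufb4 (0.18) had positive log2 differences with groups that overlapped. The difference of Ndufa6 was 0.12 without vehicle replicate 2 and that of Ndufb4 was 0.10 without vehicle replicate 1. Reads of Ndufb4 may be shared with its pseudogene Ndufb4c, which was listed at 15.1, 17.0 and 16.4 FPKM in TMAO libraries and 14.1, 16.6 and 18.1 FPKM in vehicle libraries, so both levels are uncertain.

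Ndufa4l2, a paralog of Ndufa4 that hypoxia induces, was the member past an unadjusted p of 0.05. It had 1.38, 1.45 and 1.67 FPKM in TMAO libraries, against 3.27, 2.04 and 2.004 FPKM in vehicle libraries. The groups did not overlap and vehicle replicate 1 was the highest (log2 difference -0.44, SE 0.17, limma p 0.0419, adjusted p 0.404). Without that library the difference was -0.27, and with 0.1 FPKM added in place of 1 it was -0.63. Ndufa4, named for complex I and now known as a subunit of complex IV, had 78.8, 66.8 and 61.9 FPKM in TMAO libraries and 56.2, 60.4 and 72.8 FPKM in vehicle libraries, which overlap. Ndufa4l2 made up 2.16% ± 0.454 of the summed FPKM of the pair in TMAO libraries and 3.82% ± 1.49 in vehicle libraries (SD, n = 3 each).

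Complex II links the chain to the tricarboxylic acid cycle. Sdhc had 16.6, 15.5 and 15.9 FPKM in TMAO libraries, against 21.7, 17.6 and 18.7 FPKM in vehicle libraries. Every TMAO library was below every vehicle library (log2 difference -0.25, SE 0.12, limma adjusted p 0.404), and the difference was -0.17 without vehicle replicate 1. The other subunits overlapped between groups, with log2 differences of 0.05 for Sdha, 0.0073 for the iron-sulfur subunit Sdhb and -0.0028 for the second anchor Sdhd. Without that library these were 0.02, -0.07 and -0.05. Sdha had 77.8, 74.3 and 74.7 FPKM in TMAO libraries and 69.8, 71.7 and 77.6 FPKM in vehicle libraries.

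In complex III, Uqcrb, which helps to bind ubiquinone, had 41.0, 41.2 and 37.5 FPKM in TMAO libraries, against 47.9, 42.0 and 44.5 FPKM in vehicle libraries. The groups did not overlap, though TMAO replicate 2 and vehicle replicate 2 were close (log2 difference -0.16, SE 0.12, limma adjusted p 0.462). Uqcrfs1, the Rieske iron-sulfur protein that hands electrons towards cytochrome c, had 48.6, 45.1 and 42.3 FPKM in TMAO libraries and 49.0, 50.5 and 46.9 FPKM in vehicle libraries, which overlap (log2 difference -0.11). Uqcrc2 (0.04) and the hinge protein Uqcrh (0.01) were the 2 members with positive log2 differences. Without vehicle replicate 1 their differences were -0.02 and 0.02.

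Complex IV has tissue isoforms of several subunits. The common isoforms were the abundant ones: Cox4i1 had 182, 159 and 167 FPKM in TMAO libraries and 169, 170 and 180 FPKM in vehicle libraries. Its log2 difference was -0.03, or -0.05 without vehicle replicate 1. Cox6a1 had 176, 158 and 169 FPKM in TMAO libraries and 208, 171 and 206 FPKM in vehicle libraries, which overlap at TMAO replicate 1 and vehicle replicate 2 (log2 difference -0.21, SE 0.14). The muscle isoform Cox6a2 made up 3.30% ± 0.496 of its pair in TMAO libraries and 3.20% ± 0.582 in vehicle libraries (SD, n = 3 each). Cox5a, a subunit on the matrix side, had a log2 difference of -0.14, and Cox7a2l, which helps to join complexes III and IV, and Cox6c had 0.09 and 0.10. Without vehicle replicate 1 these last values were 0.05 and -0.02, and Cox5a had -0.06 without vehicle replicate 3. The pseudogene Cox6c2 had 6.70, 3.86 and 4.79 FPKM in TMAO libraries and 3.43, 4.63 and 4.27 FPKM in vehicle libraries.

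The minor isoforms of complex IV were low in all libraries. Cox4i2, the second isoform of subunit 4, had 1.502, 1.16 and 1.402 FPKM in TMAO libraries and 3.41, 1.89 and 1.26 FPKM in vehicle libraries, so vehicle replicates 1 and 2 were above every TMAO library and vehicle replicate 3 was not. Its log2 difference was -0.38 (SE 0.25, limma adjusted p 0.446) and -0.12 without vehicle replicate 1. The testis isoform Cox6b2 had 0.635, 0.896 and 0.382 FPKM in TMAO libraries and 4.83, 0.958 and 0.325 FPKM in vehicle libraries, again with vehicle replicate 1 alone high. The muscle isoform Cox7a1 had 1.56, 1.201 and 0.927 FPKM in TMAO libraries, against 0.863, 0.208 and 0.731 FPKM in vehicle libraries; the groups did not overlap, and 2 libraries reached 1 FPKM. Cox4i2 and Ndufa4l2 are known from mural cells (pericytes and vascular smooth muscle). Of 9 mural markers 1 was higher and 8 lower in TMAO libraries (median log2 difference -0.50). Without vehicle replicate 1, 3 were higher and 6 lower (median -0.09). The 9 markers summed to 58.8, 62.4 and 58.4 FPKM in TMAO libraries and 162, 71.0 and 58.7 FPKM in vehicle libraries. Of these markers 0 were at 0 in any library. Their part in the values of Cox4i2 and Ndufa4l2 was not tested.

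**Figure D4:**
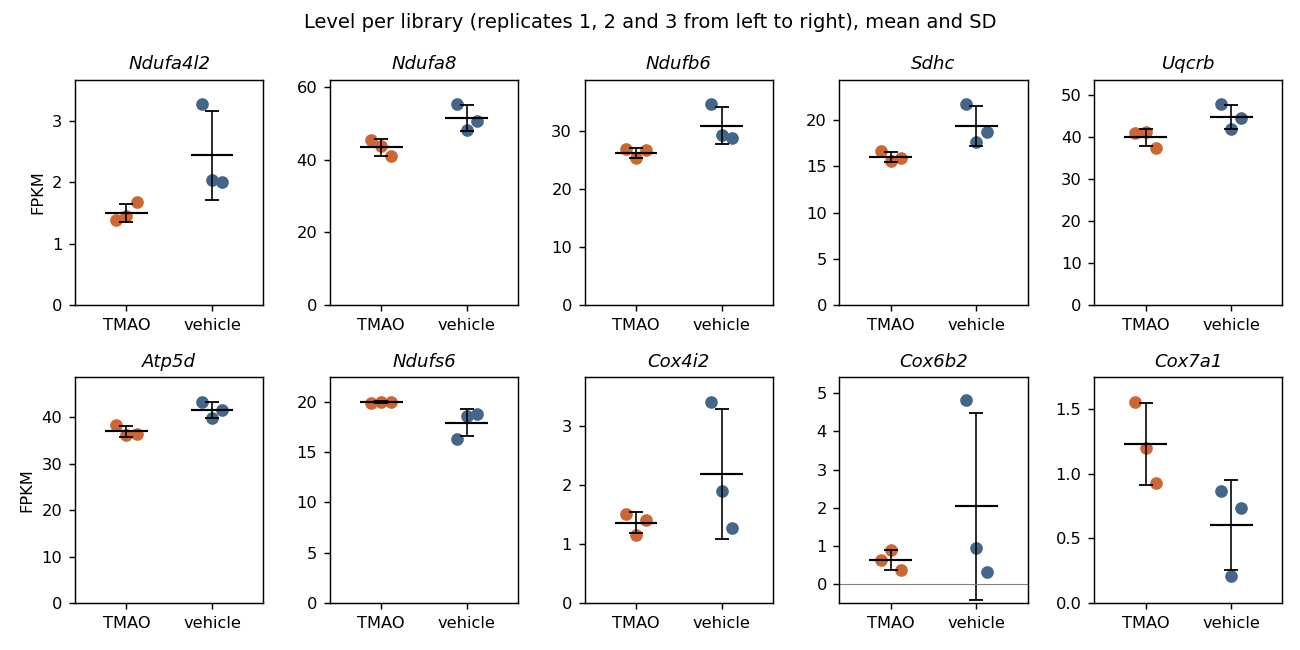
FPKM in each library for the 7 tested members whose groups did not overlap and for 3 minor isoforms of complex IV, with TMAO to the left of vehicle; bars are the mean and SD (n = 3 each). Vehicle replicate 1, the first vehicle point, is the highest library in every panel other than Ndufs6 and Cox7a1.

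In complex V the catalytic head had log2 differences close to 0. Atp5b, the catalytic beta subunit, had 173, 170 and 170 FPKM in TMAO libraries and 169, 163 and 193 FPKM in vehicle libraries (log2 difference -0.03, and -0.05 without vehicle replicate 1). For Atp5a1 and the central stalk subunit Atp5c1 the log2 differences were -0.0074 and 0.02, and for Atp5o and Atp5j2 0.02 and 0.02. Without vehicle replicate 1 these were -0.07, -0.06, -0.05 and 0.02. Atp5d, the delta subunit of the central stalk, had 38.4, 36.3 and 36.4 FPKM in TMAO libraries, against 43.4, 39.8 and 41.6 FPKM in vehicle libraries. Every TMAO library was below every vehicle library (log2 difference -0.16, SE 0.11, limma adjusted p 0.443; -0.13 without vehicle replicate 1).

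The rotor subunit c is encoded by 3 genes for the same mature protein, and all 3 had negative log2 differences with overlapping groups: -0.26 for Atp5g1, -0.19 for Atp5g2 and -0.21 for Atp5g3. Atp5g2 had -0.09 without vehicle replicate 1, and Atp5g1 had -0.12 without vehicle replicate 3. Atp5g3 had 45.8, 38.9 and 36.4 FPKM in TMAO libraries and 44.0, 45.8 and 50.05 FPKM in vehicle libraries. Their shares of the summed FPKM differed between groups by less than the SD between libraries: Atp5g1, Atp5g2 and Atp5g3 made up 10.95%, 33.5% and 55.6% in TMAO libraries and 11.5%, 33.0% and 55.5% in vehicle libraries.

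The 13 subunits encoded in mitochondrial DNA were all at a positive log2 difference, with a median of 0.13, and in 0 of them were the groups apart. Their summed FPKM were 87854, 83293 and 85296 in TMAO libraries and 64355, 76988 and 92861 in vehicle libraries. Vehicle replicate 1 was low; without it the median was 0.02 and 3 of the 13 were lower. The ratio of this sum to that of the nuclear members was 26.0, 27.1 and 27.4 in TMAO libraries and 20.1, 24.9 and 26.1 in vehicle libraries.

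In the related gene lists 0 genes passed an adjusted p of 0.05 in limma. Among 47 assembly factors tested 27 were higher and 20 lower (median 0.02), with 4 (8.51%) higher and 1 (2.13%) lower without overlap, against 12.1% and 17.5% of all genes; all 6 of complex III were higher (median 0.15, and 0.06 without vehicle replicate 1). Surf1, an assembly factor of complex IV, had 22.1, 22.0 and 22.8 FPKM in TMAO libraries, against 17.2, 15.7 and 21.7 FPKM in vehicle libraries, which did not overlap. Of 17 regulators 9 were higher and 8 lower (median 0.04), with 2 (11.8%) higher and 4 (23.5%) lower without overlap, against 12.1% and 17.5% of all genes. Without vehicle replicate 1 the regulators' median was -0.0048 and 9 were lower. Ppargc1a, the coactivator PGC-1 alpha, had 9.17, 7.99 and 8.34 FPKM in TMAO libraries, against 4.66, 6.79 and 6.47 FPKM in vehicle libraries. Its groups did not overlap (log2 difference 0.46, limma p 0.0212, adjusted p 0.404; 0.31 without vehicle replicate 1), and neither did those of the oestrogen-related receptor Esrrg (0.61, and 0.38 without that library). The elongation factor Tefm (-0.33) and Gabpb1, a subunit of GABP (-0.25), were lower in every TMAO library, as were Nrf1 (-0.18, and -0.10 without vehicle replicate 1) and the coactivator Pprc1 (-0.58, and -0.24 without it), named after their values were seen. In the tricarboxylic acid cycle 8 of 14 were higher and 6 lower (median 0.02). Without vehicle replicate 1 that median was -0.02 and 10 of the 14 were lower. In membrane transport 5 of 17 were higher and 12 lower (median -0.12), 6 of them (35.3%, against 17.5% of all genes) without overlap. Among these were the prohibitin Phb2 (-0.31) and the adenine nucleotide carrier Slc25a5 (-0.32). For comparison, 1 of 37 cytosolic ribosomal protein genes was higher and 36 lower (median -0.33, and -0.16 without vehicle replicate 1).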

How the data were processed

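RNA of 6 brain libraries was sequenced, and the submitters' processing notes name cutadapt 1.9, a read trimmer, and the build mm9. Aligner, quantifier and annotation: not given in the sources used here. The authors deposited FPKM per gene, with their ratio (fold) of TMAO over vehicle, its log2, and a p-value and q-value, per the file headers. Read counts were not used here, so the depth is unknown and precision rests on the spread between libraries. Of the gene IDs 99.6% are in GENCODE M21 (GRCm38), which gave gene types and coordinates.

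FPKM were transformed to log2(FPKM + 1) and genes reaching 1 FPKM in 3 or more libraries were compared by limma 3.58.1 (R 4.3.3) (trend and robust estimation, two-sided, Benjamini-Hochberg adjustment, threshold 0.05). The fit was also run on simulated data with noise drawn independently for each gene, so it does not cover shifts that many genes share within a library. Single values of 3 against 3 libraries cannot reach an exact permutation p under 0.1. Motifs were sought on both strands. Named genes were core subunits, isoform families, the highest, lowest and filtered members, up to 3 members per complex and direction and up to 4 genes per list with the smallest p; 1 of them is not reported here. Members and lists were chosen with earlier results of these data known. Alternatives covered pseudocount, filter, scaling, a replicate block and leaving out each library. Figures used matplotlib 3.10.9.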

Additional observations from a re-analysis of the deposited data

How the results depend on the processing

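No member passed an adjusted p of 0.05 in limma under any alternative run (smallest 0.197). Of 543 recomputed log2 differences of 39 named members, 499 kept their direction and 44, in 15 members, turned. The members lower numbered 37 under median scaling (median 0.01), 27 under quantile normalization, 32 when rescaled without mitochondrially encoded genes and 30 to 60 when one library was left out (52 as reported). At an unadjusted p under 0.05 there were 0 members with a filter of 5 FPKM, 0 with the replicate block and 0 to 3 when one library was left out; for all genes the count was 970 with that filter and 528 to 3365 (1712 as reported). Members without overlap numbered 7 to 17 lower (8.43% to 20.5%, against 20.4% to 28.7% of all genes) and 1 to 16 higher (at most 19.3%, against 14.9% to 23.3%) when one library was left out, where separation of 3 against 2 is more common, and 2 higher when rescaled. The replicate numbers did not pair the libraries (correlations -0.216, -0.0636 and -0.0153). Under median scaling, quantile normalization and rescaling the log2 differences turned to 0.0247, 0.1003 and 0.0490 for Atp5a1, 0.00254, 0.0874 and 0.0268 for Atp5b, 0.00186, 0.0705 and 0.0261 for Cox4i1, 0.0220, 0.0460 and 0.0457 for Ndufv2, and 0.0287, 0.0807 and 0.0525 for Sdhd; the cause was not tested. Leaving out one library gave ranges of -0.0702 to 0.0462 for Atp5a1, -0.0796 to 0.0420 for Atp5b, -0.0559 to 0.107 for Atp5c1, -0.0501 to 0.0770 for Atp5j2, -0.0502 to 0.111 for Atp5o, -0.0840 to 0.0133 for Cox4i1, -0.276 to 0.0300 for Cox6a2, -0.0233 to 0.217 for Cox6c, -0.00471 to 0.152 for Ndufs1, -0.0626 to 0.112 for Ndufs7, -0.0740 to 0.0854 for Ndufv2, -0.0690 to 0.0979 for Sdhb, -0.0539 to 0.0457 for Sdhd, -0.0249 to 0.110 for Uqcrc2 and -0.0715 to 0.0761 for Uqcrh. The filter of 5 FPKM gave no value for Ndufa4l2, Cox6c2 and Cox4i2, and overlap was not recounted under quantile normalization.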

Other observations

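Partners outside the naming rule did not all lie near the members' median log2 difference of -0.02. Cyc1, the cytochrome subunit of complex III, had 36.2, 32.8 and 38.0 FPKM in TMAO libraries and 35.9, 34.6 and 41.2 FPKM in vehicle libraries. Cytochrome c (Cycs) had a log2 difference of -0.09, or -0.06 without vehicle replicate 1. Atpif1, the inhibitor of the ATP synthase, had 45.8, 38.3 and 39.9 FPKM in TMAO libraries and 29.4, 32.8 and 43.7 FPKM in vehicle libraries, with a log2 difference of 0.24, or 0.12 without vehicle replicate 1, and overlapping groups.

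Some of the 13 names set aside had sizeable values. Ndufa12-ps, a processed pseudogene, was listed at 42.7, 38.1 and 45.9 FPKM in TMAO libraries and 47.6, 41.4 and 44.2 FPKM in vehicle libraries, above its parent Ndufa12 at 12.9, 12.99 and 11.5 FPKM in TMAO libraries and 15.2, 9.64 and 13.7 FPKM in vehicle libraries. Reads shared by such copies make both levels uncertain. Cox5b-ps, annotated as protein-coding, had 8.77, 5.85 and 11.1 FPKM in TMAO libraries and 9.32, 9.98 and 10.2 FPKM in vehicle libraries.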
